A study of Mus musculus with 12 samples.

Results

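Semaphorin 6A (SEMA6A) is a membrane-bound guidance protein whose known receptors are the plexins A2 and A4. Plexins act on small GTPases and through them on the cytoskeleton, and the secreted semaphorin 3A (SEMA3A) reaches class A plexins through neuropilin 1. In the immune system this family is known for its part in T cell contact, movement and activation. The data described here are the RNA levels of mouse splenocytes that were grown with tumour cells carrying more SEMA6A, averaged over cultures with and without SEMA3A protein.

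All 6 arrays whose label names SEMA6A overexpression were set against the 6 arrays without it, which together are the 12 arrays of the series. The splenocytes came from DBA/2 mice aged 10 weeks and were kept for 9 days with KLN-205 cells, a squamous carcinoma line, with interleukin-2, a T cell growth factor, at 100 units/mL every 3 days. A knockdown of SEMA3A in the tumour cells (KLN-205KD) was common to all 4 groups of 3 arrays. The control group had these cells alone, the SEMA6A group had KLN-205KD cells overexpressing SEMA6A, the SEMA3A group had KLN-205KD cells with 10 µg/mL of purified SEMA3A, and the last group had both. The vectors and promoters, and whether the tumour lines were single clones, are not given in the sources used here. Nothing in the labels tells if the 3 arrays of each group stand for different cultures or mice, so the p-values measure the spread between these samples, which may be technical. In such mixed RNA, fewer cells of a type and less RNA per cell cannot be told apart. Precision is limited by how few arrays there are.

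The cultures carried RNA of killer lymphocytes, with genes of cytotoxic T cells and genes that natural killer cells also use. Gzmb, the gene of the killing protease granzyme B, was at signals of 40735 to 47447 over the 12 arrays, where the brightest probe set of an array was at 44046 to 53212 before quantile normalization. Cd8a, the coreceptor gene of cytotoxic T cells, was at 1607 to 3974. Signals of Cd4, Foxp3, Krt14 and the macrophage marker Adgre1 stayed below the filter on dim probe sets, but other markers of these cell types passed it. Of the list of CD4 and regulatory T cells 3 of 6 genes passed, Ctla4, Il2ra and Ikzf2. Of the carcinoma genes, Epcam passed at means of 924 without and 795 with SEMA6A. The 4 markers alone thus do not show that a cell type was absent. Of the natural killer list 11 of 13 genes named on the array passed the filter, and some were bright. Nkg7, a granule membrane gene that cytotoxic T cells share, was at means of 19503 without and 19418 with SEMA6A, and the lectin receptor gene Klrd1 at 9220.2 and 9523. Of the other marker lists, 4 of 12 B cell genes and 8 of 18 macrophage and monocyte genes named on the array passed that filter, and so did 2 of 13 neutrophil genes and 16 of 25 squamous carcinoma genes. All 3 probe sets of Sema6a and all 3 of Sema3a were below it too, at no more than 42.1 and 49.1 on any array. These arrays held splenocyte RNA, so the overexpression in the tumour cells was not checked by them. The median signal was 48.7 ± 3.21 on the 6 SEMA6A arrays and 46.0 ± 2.94 on the others (SD; 2-sided exact permutation within SEMA3A strata, p = 0.13). None of 5 array measures differed after adjustment, the lowest adjusted p being 0.638. SEMA6A replicate 2 had a Gapdh 3'/5' ratio, a gauge of RNA integrity from control probe sets, of 1.22, against 0.767 to 0.818 on the other 11 arrays. SEMA6A replicates 2 and 3 and SEMA3A replicates 1 and 2 stood apart from the other 8 arrays in several gene lists across their labels, so results that rest on them are also given over the 8 others, a choice made after seeing the data that leaves 1 array in each of these groups. Such a lone array is assumed to vary like the others.

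On average SEMA6A was accompanied by small differences, and none passed the test. By limma, 0 of 11325 genes (0%) were called at an adjusted p under 0.05, the lowest adjusted p being 0.935. At an unadjusted p under 0.05 there were 580 genes, 5.12% of those tested, of which 358 (3.16%) lay higher with SEMA6A and 222 (1.96%) lower. Leaving out control replicate 3 gave 367 genes and leaving out SEMA6A replicate 1 gave 1040, with 0 adjusted calls in each. When arrays were scaled to a common median in place of quantile normalization, the median log2 difference of all genes moved from 0.01 to -0.05, and the split turned to 148 higher and 536 lower of 684. Most intervals of this average effect were narrow, with every array counted as independent. Standard errors had a median of 0.11 (log2), and for 9620 genes (84.9%) the whole 95% interval lay within a 1.5-fold difference. For 11056 genes (97.6%) it lay within 2-fold, and 2 genes had an estimate beyond 2-fold, Pax9 and Serpind1, an inhibitor of thrombin, at 1.12. Intervals of the average do not bound the SEMA6A effect without or with SEMA3A alone. In those strata 514 and 529 genes had an estimate beyond 1.5-fold, against 80 for the average.

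Genes that lay higher with SEMA6A are given first, ordered by what they encode, with the lowest, median and highest signal of each 6 arrays. They are the genes with the smallest p in that direction, and every adjusted p was 0.935. The transcription factor family gene Gtf2ird2 was at 373, 438 and 528 without SEMA6A and at 534, 604 and 658 with it, a log2 difference of 0.42 ± 0.09 (SE). All 6 SEMA6A arrays lay above all 6 others for this gene, a separation seen in that direction for 0.124% of genes. Lin54, the gene of a DNA-binding subunit of the cell cycle regulator DREAM, had a difference of 0.48 ± 0.12, while its second probe set had one of -0.21. Pax9, a paired box transcription factor gene, was at 6.998, 8.04 and 54.9 without and 28.4, 47.9 and 71.0 with SEMA6A, a difference of 1.11 ± 0.28. Control replicate 2 alone, at 54.9, overlapped the SEMA6A arrays, while the other 5 arrays without SEMA6A were between 6.998 and 9.07, close to the lowest signals measured. Pax9 thus passed the filter on dim probe sets mainly through SEMA6A arrays, which favours a higher level with SEMA6A.

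Enzymes of RNA handling were also among these genes. Vars2, the mitochondrial valyl-tRNA synthetase gene, was at 117, 149 and 204 without SEMA6A and 200.4, 241 and 276 with it, a log2 difference of 0.62 ± 0.13. The ranges overlapped through SEMA3A replicate 3, at 204, and a second probe set was at 0.05. Qrsl1, of the enzyme complex that makes mitochondrial glutaminyl-tRNA, had a difference of 0.31 ± 0.08, made of 0.06 without and 0.55 with SEMA3A, and 0.07 on its second probe set. Drosha, the nuclease that cuts primary microRNA transcripts, was at 982, 1129.8 and 1498 without SEMA6A and 1199, 1760.4 and 2287 with it, a difference of 0.52 ± 0.13. The 4 highest arrays were the 3 with both factors and SEMA6A replicate 2, and a second probe set was at 0.07.

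Of the other genes in this direction, Sarm1 encodes an enzyme that breaks down NAD in injured axons. It was at 31.2, 44.0 and 68.4 without SEMA6A and 60.6, 98.8 and 122 with it, a log2 difference of 0.83 ± 0.19, and 5 of the 6 arrays without SEMA6A lay at or below 60.8. Enpp4, a nucleotide-cleaving surface enzyme, had a difference of 0.38 ± 0.09. Nuf2, of the kinetochore complex that holds spindle fibres, had one of 0.30 ± 0.08. Kif22, a kinesin gene that moves chromosomes, had one of 0.44 ± 0.10, but the other 2 of its 3 probe sets were at -0.06 and -0.19. The kinesin gene Kif2c, which takes microtubules apart in mitosis, separated the 6 and 6 arrays, at 1071, 1165 and 1333 and 1356, 1480.1 and 1632, a difference of 0.31 ± 0.08. Both Kif22 and Kif2c were read by probe sets of a class that can bind other transcripts.

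Among the genes that lay lower, Ankrd9, an ankyrin repeat gene, had the smallest p. Its signals were 58.1, 70.9 and 88.1 without SEMA6A and 12.1, 27.9 and 60.4 with it, which is -0.99 ± 0.20 in log2 (SE; adjusted p by limma = 0.935). Only the array of both factors replicate 3, at 60.4, reached into the range of the others. With pseudocounts of 1 and 64 in place of 16 this dim gene was at -1.37 and -0.54. It passed the filter on dim probe sets through the arrays without SEMA6A, which favours a lower level with SEMA6A.

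Dgkq, the gene of diacylglycerol kinase theta, which removes a lipid messenger of receptor signalling, was at 54.8, 74.9 and 99.3 without and 29.8, 42.1 and 55.7 with SEMA6A, a log2 difference of -0.67 ± 0.19. The ranges met through SEMA3A replicate 3, at 54.8, and SEMA6A replicate 2, at 55.7. Brap, whose product limits signalling from Ras to the MAP kinases, had a difference of -0.28 ± 0.07, with 757, 774 and 761 on the SEMA3A arrays and 574, 542 and 574 with both factors. In the other stratum its ranges overlapped, at 637, 527 and 614 in the control group and 492, 544 and 586 in the SEMA6A group. Fastk, the gene of a Fas-activated kinase, separated the groups, at 615, 662 and 771 without and 429, 566 and 614 with SEMA6A, a difference of -0.30 ± 0.08. Non-overlap in this direction was seen for 0.0530% of genes.

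Lta4h, whose product makes the attractant leukotriene B4, had a log2 difference of -0.22 ± 0.06, and Tsnax, of the RNA-cutting complex with translin, one of -0.30 ± 0.08. Spop, which selects substrates for a ubiquitin ligase, was at -0.24 ± 0.07, of which -0.03 came without SEMA3A and -0.45 with it. Nat8, an acetyltransferase gene, was at -0.82 ± 0.23 from signals of 23.8, 46.6 and 66.3 against 7.12, 18.8 and 37.7, which overlap at the lower end. Its signals with SEMA6A were below the array medians, so it passed the filter on dim probe sets only through arrays without SEMA6A. That favours a lower level with SEMA6A among the genes tested. For 4 of these genes other probe sets went the opposite way. Zfp444, a zinc finger gene at -0.59 ± 0.16, had a second probe set at 0.36, and Kansl1, of a histone acetylation complex, was at -0.32 ± 0.09 on its brightest and at 0.15 on its second probe set. Tsnax had one at 0.13, and Spop had others at -0.60 and 0.06. In all, 12 of the 20 leading genes had more than 1 probe set past the filter, and in 6 of those 12 all of them pointed the same way.

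The 6 and 6 arrays did not overlap for 20 genes (0.177%), 14 with all SEMA6A arrays above and 6 with all below. The largest difference among them was that of Pnmal2, at 0.55 ± 0.16, with signals of 27.8, 37.1 and 57.2 without and 58.3, 61.1 and 73.5 with SEMA6A. Others above were Tmem198, at 0.40, and the kinase gene Dstyk, at 0.34 (-0.24 on its second probe set). Sprr1a, a cornified envelope gene of squamous epithelium, the tissue type of the tumour line, was at 0.33. Its signals were 35.2 to 47.9 without and 48.1 to 72.5 with SEMA6A. Both Pnmal2 and Sprr1a passed the filter on dim probe sets through the SEMA6A arrays, since most of their other signals were below the array medians. That favours a higher level with SEMA6A, so these 2 separations are in part a result of the filter. Small and regular differences stood behind several separations. Uqcr10, of respiratory complex III, was at 4583, 4929 and 5086 and 5271, 5460.1 and 5549.9, a difference of 0.16 ± 0.05, and Gss, the glutathione synthetase gene, was at 0.23 ± 0.08. Below were Dync1li1, a dynein subunit gene at -0.25, the taurine transporter gene Slc6a6 at -0.22, the Golgi GTPase gene Arl1 at -0.14 and Ugcg, which starts glycosphingolipid synthesis, at -0.14. Uqcr10 and Gss were picked after their values were seen.

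**Figure D1:**
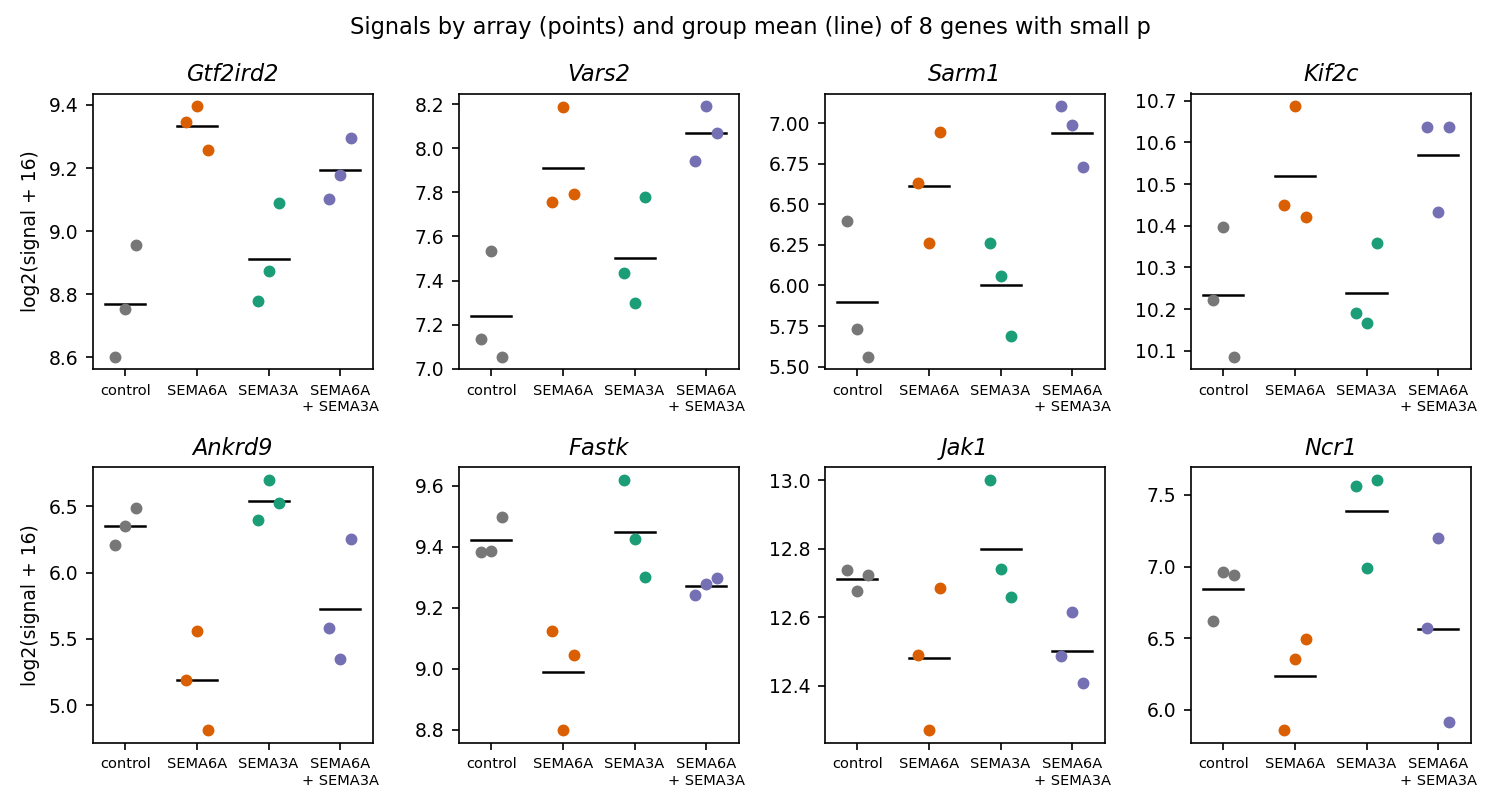
Signals of 8 genes with small p, as log2(signal + 16) on the vertical axis, for the 4 groups. Each point is 1 array and each line the mean of 3 arrays. In Gtf2ird2 and Kif2c all 6 SEMA6A arrays lie above the 6 others, in Fastk all lie below, and in Vars2, Sarm1, Ankrd9, Jak1 and Ncr1 the ranges overlap.

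The average is made of a difference without SEMA3A (SEMA6A minus control) and one with SEMA3A (both factors minus SEMA3A), which share no array. For most genes these did not point the same way. Across the 11325 genes their Pearson r was -0.37 and Spearman's rho -0.36, a description only, since genes are not independent replicates, and 36.8% of genes had the same sign in both. Leaving out 1 array at a time gave r between -0.45 and -0.22. The spread of the log2 differences over genes was 0.28 (SD) without SEMA3A and 0.27 with it, and 0.15 for their average. At an unadjusted p under 0.05 there were 1184 genes (10.5%) without SEMA3A and 1270 (11.2%) with it, and 0 in each after adjustment by limma. Those counts moved from 549 without SEMA6A replicate 2 to 3012 without SEMA6A replicate 1, and from 585 without SEMA3A replicate 1 to 2027 without SEMA3A replicate 3. The first was also 781 and 702 without control replicates 1 and 3, and the second was 755 without SEMA3A replicate 2, 787 without replicate 1 of both factors and 1969 without SEMA6A replicate 2. The interaction, which tests the difference between the strata, had 2037 genes at an unadjusted p under 0.05 (18.0%) and 0 adjusted calls, with a lowest adjusted p of 0.197. After adjustment 1286 genes passed the interaction without SEMA6A replicate 1 and 281 without SEMA3A replicate 3, and 512 passed in the stratum without SEMA3A when SEMA6A replicate 1 was left out. Without SEMA3A replicate 1 the unadjusted count was 1297, and without SEMA6A replicate 1 it was 3385.

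Both differences were past an unadjusted p of 0.05 for 210 genes, and 198 of them went in opposite directions. Of these, 132 lay higher with SEMA6A where SEMA3A was absent and lower where it was present, and 66 the reverse. The remaining 12 went the same way, 7 higher and 5 lower. Every one of the 12 arrays moved the 198 by more than 1.5 times when left out, to between 52 (without SEMA3A replicate 1) and 699 (without SEMA6A replicate 1). The 12 moved to between 7 (without control replicate 3 or SEMA3A replicate 1) and 43 (without control replicate 2), and were 28, 20 and 24 without SEMA6A replicates 1, 2 and 3. In each of these fits the opposite genes outnumbered the others. Over the 8 arrays left without SEMA6A replicates 2 and 3 and SEMA3A replicates 1 and 2 they did not: 11 genes were opposite and 15 of one direction, r was 0.09, 54.6% of genes had the same sign and 332 interaction genes were at an unadjusted p under 0.05. Over all genes the opposite strata were thus not seen without those 4 arrays, 2 in the SEMA6A group and 2 in the SEMA3A group. The 4 were picked for standing apart in these same data, so that fit cannot show that the opposite strata rest on them alone. Over the 8 arrays the medians without and with SEMA3A were 0.13 and -0.09 for glycolysis and hypoxia genes, described below. They were 0.00 and -0.03 for DNA replication genes. Whether RNA quality or tumour cell RNA has a part in what sets the 4 arrays apart was not tested.

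The 12 genes of one direction were chosen on these contrasts, so their values are a description without a further test. The log2 differences without and with SEMA3A were 0.72 and 0.94 for Sarm1, 0.67 and 0.56 for Vars2, and 0.56 and 0.28 for Gtf2ird2. Enpp4 was at 0.34 and 0.43, and Kif2c at 0.28 and 0.33. Nmral1, an NADPH-binding protein gene, was at 0.36 and 0.35, and Klhl17, a kelch protein gene, at 0.27 and 0.27. On the lower side Ankrd9 was at -1.16 and -0.81, Dgkq at -0.69 and -0.65, and Zfp444 at -0.60 and -0.58. Tmem154, a transmembrane protein gene, was at -0.57 and -0.61, and Dync1li1 at -0.23 and -0.26. The gap between the strata was widest for Ankrd9.

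**Figure D2:**
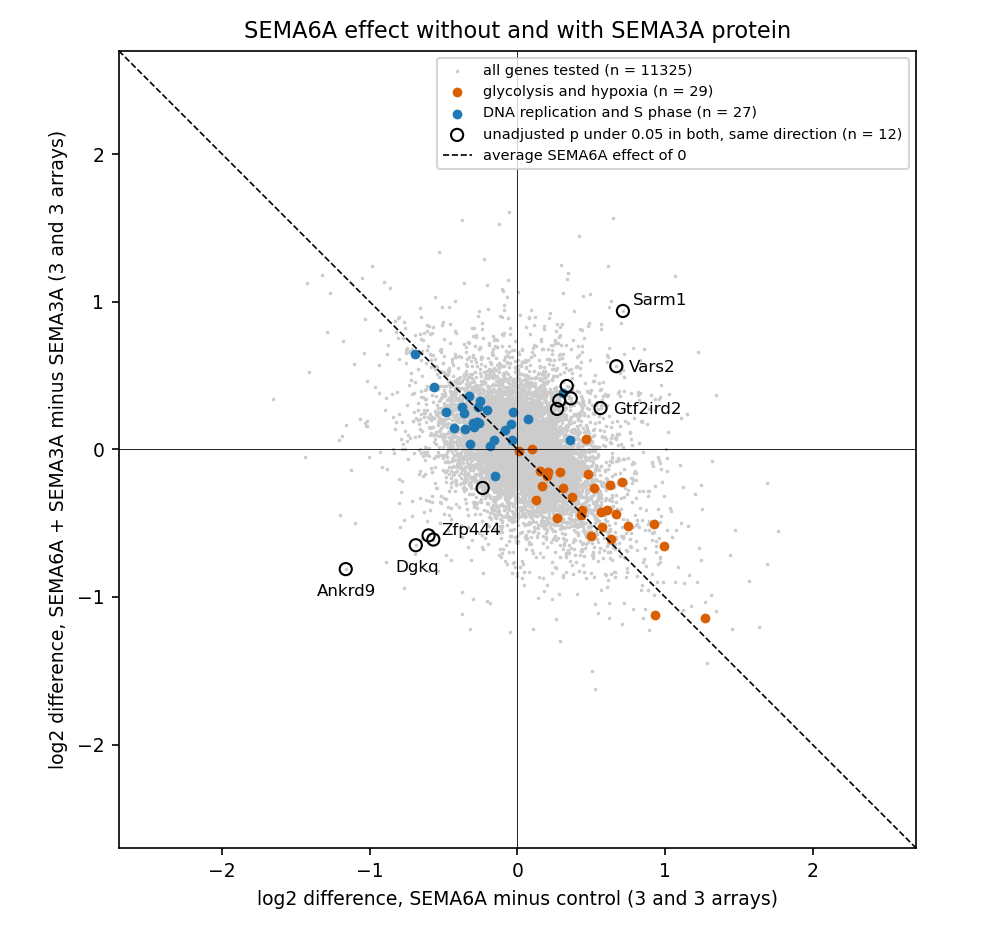
Log2 difference of each gene without SEMA3A (horizontal axis, SEMA6A minus control) against that with SEMA3A (vertical axis, both factors minus SEMA3A), each from 3 and 3 arrays. Grey points are all 11325 genes, orange the 29 glycolysis and hypoxia genes, blue the 27 replication genes and open circles the 12 genes of one direction. The dashed line marks an average effect of 0, along which the coloured genes lie, while the open circles lie away from it.

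Glycolysis and hypoxia genes, which encode the enzymes that turn glucose into lactate and the targets of the oxygen-sensing factor HIF-1, had opposite differences that left almost nothing in the average. The median log2 difference of the 29 tested genes was 0.48 without SEMA3A, with 29 above 0, and -0.35 with SEMA3A, with 2 above 0. On average the median was 0.03, or -0.02 under median scaling, against 0.01 for all genes. On average 22 of 29 lay above 0, or 12 under median scaling, where 54.3% of all genes did. Of the 29 genes, 1 was past an unadjusted p of 0.05 on average, where 5.12% of all genes were. It was Pfkfb3, which makes the activator of phosphofructokinase, at 0.27 ± 0.12. Its strata were at 0.46 without and 0.07 with SEMA3A. Over the 8 other arrays the list's medians were 0.13 without and -0.09 with SEMA3A, with 27 and 9 of 29 above 0. Aldoc, an aldolase gene, was at 1.27 and -1.15, and on average at 0.06 ± 0.30. The oxygen-sensing hydroxylase gene Egln3 was at 1.00 and -0.65, and the mitophagy gene Bnip3 at 0.64 and -0.61. Hif1a itself, the gene of the oxygen-regulated subunit of HIF-1, was at 0.00 ± 0.07, with a 95% interval of -0.16 to 0.15.

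The signals by array show where the opposite differences lay. Slc2a1, the gene of the glucose transporter GLUT1, was at 3795, 4654 and 4201 on the control arrays and 4609, 8933 and 7233 on the SEMA6A arrays. It was at 8176, 6709 and 4411 on the SEMA3A arrays and 4510.3, 4288 and 5011 with both factors. SEMA6A replicates 2 and 3 and SEMA3A replicates 1 and 2 were high, so that 2 high arrays lay on each side of the average, and its difference was 0.11 ± 0.16. The mean of the 29 genes followed the same order around the mean of all 12 arrays. It was at 0.47 and 0.31 on SEMA6A replicates 2 and 3, 0.43 and 0.27 on SEMA3A replicates 1 and 2, and -0.34 to -0.06 on the other 8. Squamous carcinoma genes were also higher on these 4 arrays, at 0.20 to 0.50 against -0.32 to -0.02. So were the 2 tested neutrophil genes, at 0.57 to 1.32 against -0.74 to -0.20. Only these 2 of 13 neutrophil genes on the array passed the filter, too few to stand for that cell type. Between the 3' and 5' control probe sets of the transferrin receptor, a further gauge of RNA integrity, the ratio came to 35.7 and 23.3 on SEMA6A replicates 2 and 3, 8.39 on replicate 1, 17.2 to 18.1 on the SEMA3A arrays and 5.93 to 12.2 on the others. The part of these measures in the results was not tested. Without SEMA6A replicate 2, the array with the high Gapdh ratio, 28 of the 29 genes were above 0 without SEMA3A, with a median of 0.34, and 15 on average. Leaving out SEMA3A replicate 3 put 12 of 29 above 0 on average.

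Promoters are shown for the 3 of these genes that went furthest in opposite directions among members with 1 promoter window. All 3 carry ACGTG, the sequence that HIF-1 is known to bind, which was not a condition of the choice. The genes were chosen after their values were seen. Each is the 250 bases before the start of the gene, 5′ to 3′ on the gene's strand, from RefSeq on assembly GRCm38.p6, with every ACGTG or its reverse complement CACGT in capitals. Ankrd37, an ankyrin repeat gene known as a hypoxia target, lies at chr8:45999851-46000100 on the minus strand, Egln3 at chr12:54203875-54204124 on the minus strand and P4ha2, a collagen prolyl hydroxylase gene, at chr11:54100674-54100923 on the plus strand.
Ankrd37: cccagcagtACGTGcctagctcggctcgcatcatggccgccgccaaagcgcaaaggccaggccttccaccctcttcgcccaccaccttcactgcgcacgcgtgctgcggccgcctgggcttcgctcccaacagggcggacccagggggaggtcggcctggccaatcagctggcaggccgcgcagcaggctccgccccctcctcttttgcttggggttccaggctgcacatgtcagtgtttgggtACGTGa
Egln3: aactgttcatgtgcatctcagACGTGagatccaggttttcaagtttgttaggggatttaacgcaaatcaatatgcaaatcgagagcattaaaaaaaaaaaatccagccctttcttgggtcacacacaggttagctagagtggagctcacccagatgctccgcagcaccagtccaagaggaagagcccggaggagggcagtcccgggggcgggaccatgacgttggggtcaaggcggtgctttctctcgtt
P4ha2: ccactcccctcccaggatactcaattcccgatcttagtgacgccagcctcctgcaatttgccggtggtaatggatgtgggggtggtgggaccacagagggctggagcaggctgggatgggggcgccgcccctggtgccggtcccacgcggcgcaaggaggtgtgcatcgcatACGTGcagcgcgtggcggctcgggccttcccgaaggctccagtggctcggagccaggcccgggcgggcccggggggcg
The motif began 241 and 6 bases before the start in Ankrd37, 229 before it in Egln3 and 78 before it in P4ha2. The differences without and with SEMA3A were 0.93 and -1.12 for Ankrd37 and 0.92 and -0.51 for P4ha2. Promoter windows, 300 bases long here and reaching past the start, were found for 28 of the 29 tested genes, and 23 of them (82.1%) held ACGTG or CACGT. Of the 9211 tested genes with a window 29.6% did, and of all 27025 genes with a window 21.8% did. The palindrome CACGTG of other factors overlaps this motif and is counted in it. Of the 12 genes of one direction 11 had a window and 4 (36.4%) held the motif. Since targets of HIF-1 were put in the glycolysis and hypoxia list, its high share follows in part from how the list was made. A match is only a description of the letters.

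DNA replication genes ran the other way. The median of the 27 tested genes was -0.26 without SEMA3A, with 3 above 0, and 0.19 with it, with 26 above 0. Leaving out SEMA6A replicate 2 or 1 moved the first median to -0.14 or -0.41, and leaving out SEMA3A replicate 1 or 3 moved the second to 0.11 or 0.29. Over the 8 arrays without the 4 that stood apart the medians were 0.00 and -0.03, with 14 and 11 of 27 above 0. Their average had a median of -0.04, with 11 of 27 above 0. That count was 19 and 17 without SEMA6A replicate 2 and SEMA3A replicate 3, 4 and 6 without SEMA3A replicate 1 and SEMA6A replicate 1, and 4 under median scaling. Ccne2, the cyclin E2 gene of the entry into S phase, was at -0.69 and 0.64 in the 2 strata and at -0.02 ± 0.14 on average. Of the list, 2 genes were past an unadjusted p of 0.05, both higher with SEMA6A, where 3.16% of all genes were. Both are of the MCM helicase that opens DNA. Mcm6 was at 7552, 10182 and 13289 without SEMA6A and 8272, 12396 and 13662 with it, a difference of 0.21 ± 0.09. Mcm5 was at 0.14 ± 0.06 on a probe set of the class that can bind other transcripts, and at 0.04 and 0.15 on its others. The Mcm6 ranges overlapped widely, since the SEMA3A arrays, at 11562, 12741 and 13289, were among the highest, and over the 8 arrays its difference was -0.01.

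Among 23 mitosis genes the median was 0.01, or -0.05 under median scaling, and 13 lay above 0. Cdc20, which starts the separation of chromosomes, was the only one of this list past an unadjusted p of 0.05, where 5.12% of all genes were. Kif2c, Nuf2 and Kif22, described above, are not in the list. Cdc20 was at 8232, 8974 and 10706 without and 9591, 10628 and 11824 with SEMA6A, a difference of 0.23 ± 0.06. That probe set is of the class that can bind other transcripts, and the other 2 probe sets were at -0.02 and -0.01. Mki67, the common marker of proliferation, was at 0.04 ± 0.06, with a 95% interval of -0.08 to 0.17.

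**Figure D3:**
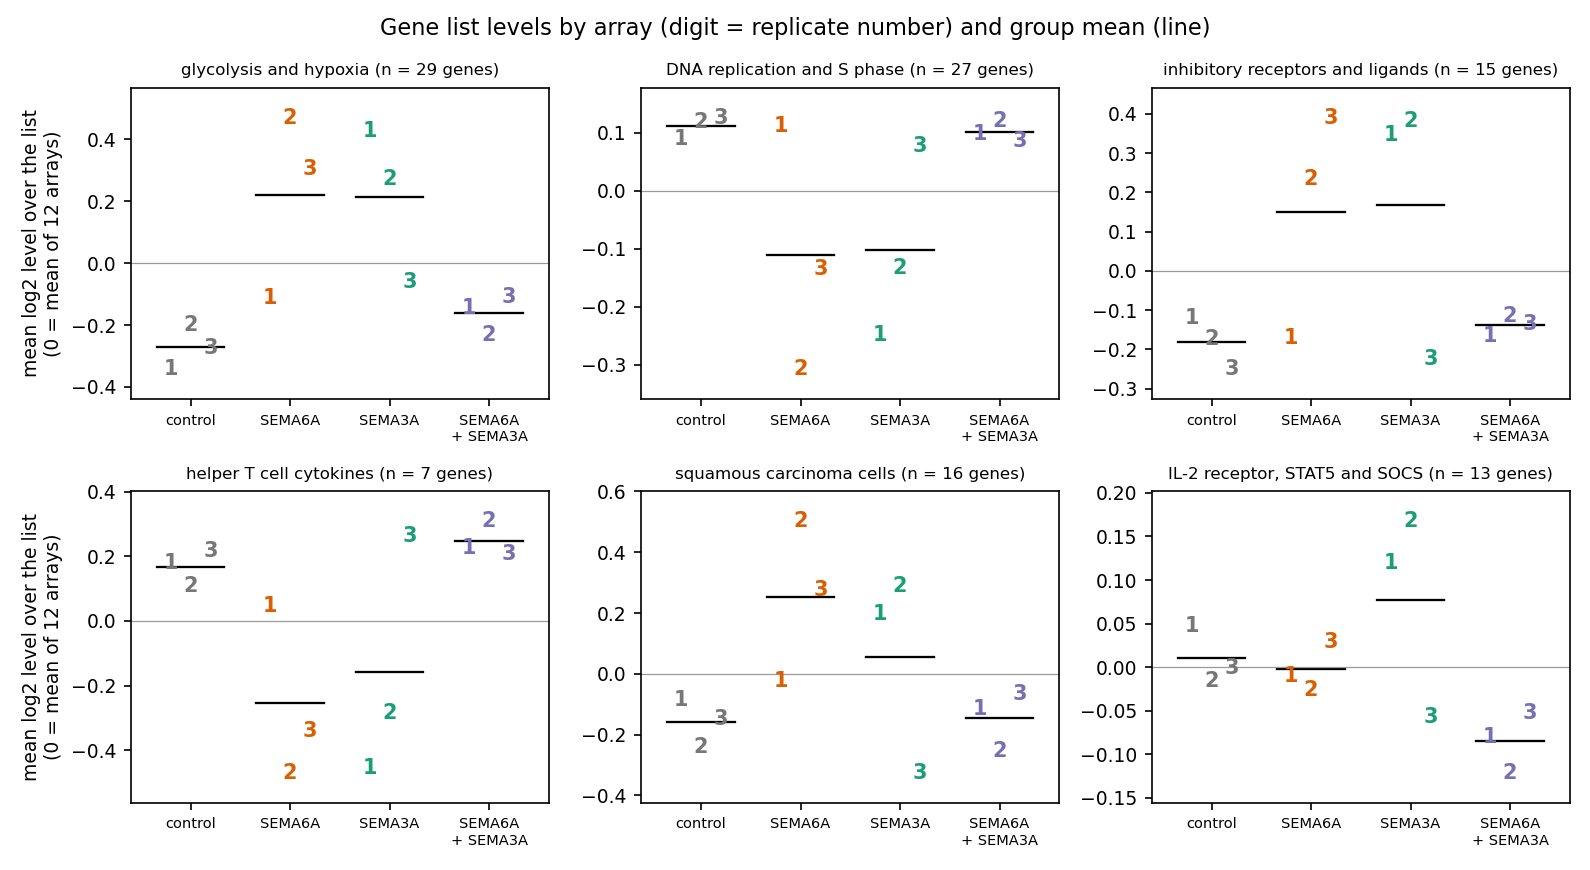
Mean log2 level of 6 gene lists on each array, with 0 at the mean of the 12 arrays, for the 4 groups. Digits are replicate numbers and lines group means of 3 arrays. SEMA6A replicates 2 and 3 and SEMA3A replicates 1 and 2 lie apart from the other 8 arrays in the glycolysis, replication, inhibitory receptor, cytokine and squamous carcinoma lists.

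Among killing genes of cytotoxic T cells, Gzmb was at 41111, 44298 and 45748 without SEMA6A and 40735, 42913 and 47447 with it, a log2 difference of -0.02 ± 0.04 (SE) and a 95% interval of -0.10 to 0.07. This signal lay at the top of the arrays' scale, and whether the probe set was saturated was not tested, so the narrow interval bounds the signal and not the RNA. Prf1, the gene of the pore-forming protein perforin, was at -0.15 ± 0.11, with an interval of -0.39 to 0.08, and 0.23 on a dim second probe set. Its strata were at 0.11 and -0.41. Of 15 cytotoxic granule genes, 5 lay above 0 and 0 were past an unadjusted p of 0.05, with a median of -0.01. The widest difference was that of granzyme K, Gzmk, at 0.50 ± 0.25, which was at 519, 675 and 275 in the control group and 826, 1460.1 and 1141 in the SEMA6A group. Those ranges were apart, but the SEMA3A arrays, at 712, 1317 and 577, and those with both factors, at 689.9, 495 and 951, overlapped.

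Inhibitory receptors, which dampen T cells, also had opposite strata. Pdcd1, the PD-1 gene, was at 230.0, 309 and 779 without SEMA6A and 272, 413 and 809.7 with it, a difference of 0.31 ± 0.24 made of 1.11 and -0.50. Lag3 was at 0.17 ± 0.31, from 1.32 and -0.98, and Ctla4 at 0.04 ± 0.29, from 0.99 and -0.90. By array Ctla4 was at 1089, 3667 and 2639 in the SEMA6A group and 3446, 2942 and 1134 in the SEMA3A group. It was at 1121, 1161 and 1021 in the control group and 1152, 1103 and 1371 with both factors, so the same 4 arrays as for Slc2a1 were high. The list of 15 had 9 above 0, or 5 under median scaling, 0 past an unadjusted p of 0.05 and a median of 0.03, or -0.02 under median scaling. The count above 0 was 4 without SEMA3A replicate 3, and 5 and 6 without SEMA6A replicates 3 and 2. Over the 8 arrays the medians of the 14 tested genes were -0.04 without and 0.06 with SEMA3A. The 4 arrays left out were picked for standing apart in lists such as this, so that fit cannot show that the opposite strata rest on them alone. The ligand gene Cd274 (PD-L1) was at -0.11 ± 0.09.

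Helper T cell cytokines had the reverse order. Ifng, the interferon-gamma gene, was at 294, 533 and 553 without SEMA6A and 240.0, 524 and 683 with it, a log2 difference of 0.04 ± 0.16 with a 95% interval of -0.30 to 0.38. Its arrays were at 455, 322 and 240.0 in the SEMA6A group and 683, 667 and 594 with both factors. They were at 524, 541 and 553 in the control group and 294, 321 and 543 in the SEMA3A group, so that the strata stood at -0.69 and 0.77. Csf2, the gene of the growth factor GM-CSF, was at -1.33 and 1.18, and at -0.07 ± 0.40 on average. Of 7 tested cytokine genes 3 lay above 0 on average, or 1 under median scaling, and 0 were past an unadjusted p of 0.05. The count was 1 without SEMA6A replicate 1 or SEMA3A replicate 1 and 5 without SEMA6A replicate 2 or SEMA3A replicate 3. Over the 8 arrays the list's medians were -0.12 without and 0.07 with SEMA3A. Il10, an inhibitory cytokine gene, was at 0.31 ± 0.22.

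**Figure D4:**
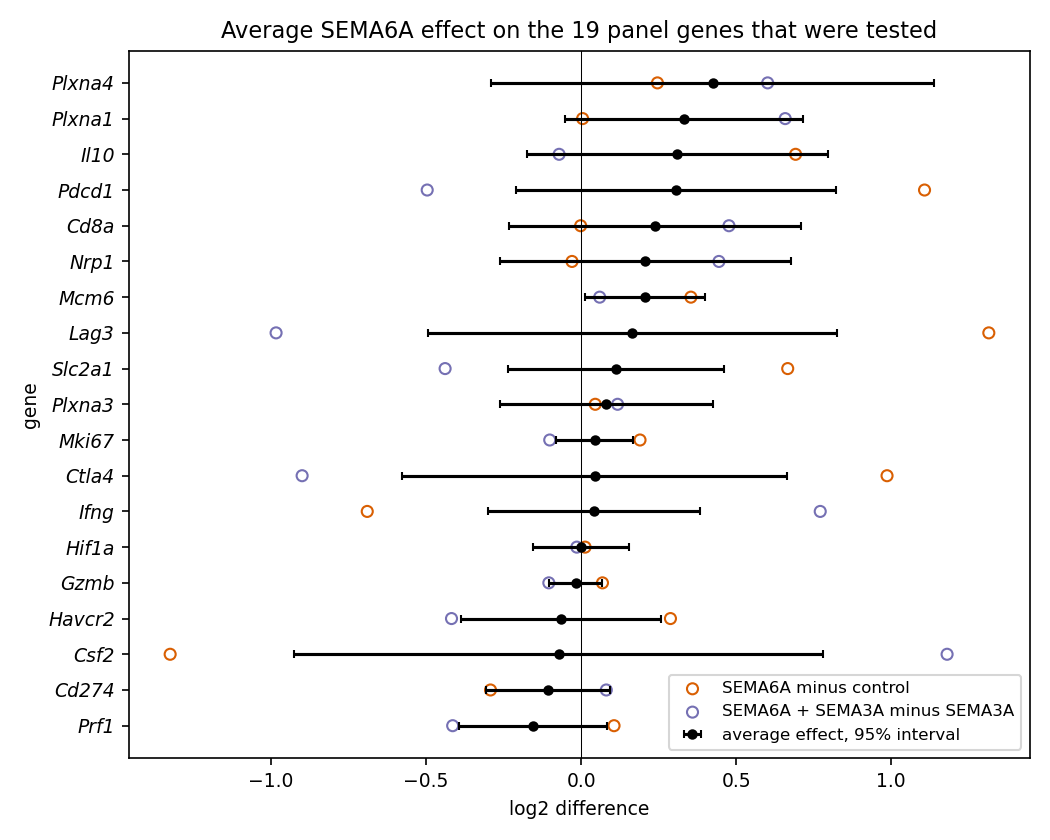
Average log2 difference with its 95% interval (black) for the 19 tested genes of a panel of 28 receptor, cytokine and T cell genes. Open circles give the difference without SEMA3A (orange) and with it (purple). The interval of 18 genes takes in 0, that of Mcm6 does not, and for Csf2, Lag3, Ctla4, Pdcd1 and Ifng the circles lie far to opposite sides.

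Genes of T cell signalling are given by list. In the list of the IL-2 receptor and its JAK and STAT5 pathway, 3 of 13 genes lay above 0, where 54.3% of all genes did, with a median of -0.09. Of the 13, 2 were past an unadjusted p of 0.05, both lower, where 1.96% of all genes were. Jak1, the kinase bound to the shared cytokine receptors, was at 6446, 6781 and 8186 without SEMA6A and 4922, 5728 and 6574 with it, a log2 difference of -0.26 ± 0.08. Its strata were alike, at -0.23 and -0.30, and the ranges overlapped through SEMA6A replicate 3, at 6574, which lay above 2 arrays without SEMA6A. The other 2 probe sets of Jak1 were at -0.07 and -0.01, so the difference rests on 1 of 3. Cish, a feedback inhibitor induced by STAT5, was at -0.16 ± 0.07. The list had a median of 0.03 without and -0.19 with SEMA3A.

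Downstream of the T cell receptor, Lcp2, the adaptor SLP-76, was at -0.17 ± 0.07 on its brightest probe set and 0.01 on the other. Zap70, the kinase ahead of it, was at -0.17 ± 0.08 on its brightest and at 0.00 and 0.22 on the others. Of the 15 receptor complex genes 10 were below 0, with a median of -0.07. Of the 22 immediate early genes, which respond within minutes to receptor signals, 11 were above 0 and 11 below. The 3 past an unadjusted p of 0.05 lay lower, where 1.96% of all genes did so. Dusp5, which inactivates ERK, was at 2595, 3119 and 3813 without and 2179, 2707 and 3000.0 with SEMA6A, a difference of -0.24 ± 0.08, with -0.22 and -0.27 in the strata. The transcription factor gene Egr1 was at -0.16 ± 0.06 and the phosphatase gene Dusp2 at -0.18 ± 0.08, of which -0.36 and -0.01 came from the strata. Tnfrsf18, the gene of the costimulatory receptor GITR, was at 3390.5, 4393 and 4908 without and 2835, 3605 and 3804 with SEMA6A, a difference of -0.28 ± 0.09. Its arrays did not overlap where SEMA3A was present, at 4908, 4722 and 4298 against 3475, 3655 and 3635, but did where it was absent.

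Receptors of semaphorins were dim. Plxna4, a known SEMA6A receptor, was at 5.81, 64.7 and 73.5 without and 42.9, 67.5 and 116 with SEMA6A, a difference of 0.42 ± 0.33 with a 95% interval of -0.29 to 1.14. The 4 probe sets of Plxna2, the other receptor, did not pass the filter. Its brightest was at 19.9 ± 10.9 without and 28.5 ± 11.98 with SEMA6A (SD, n = 6 each), which overlap. Plxna1 was at 0.33 ± 0.18, from 0.00 and 0.66, and Plxna3 and the SEMA3A coreceptor gene Nrp1 at 0.08 ± 0.16 and 0.21 ± 0.22. Of 21 tested semaphorin, plexin and neuropilin genes 11 lay above 0 and 1 was past an unadjusted p of 0.05, where 5.12% of all genes were. That was Plxnb1, a receptor of semaphorin 4D, at 0.66 ± 0.27, with 107, 24.8 and 24.9 on the SEMA3A arrays, which spread from the lowest of the 12 signals to the third highest. Plxnb2, at -0.53 ± 0.26, lay the other way.

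Of 30 genes of plexin signalling and the cytoskeleton, 12 lay above 0, where 54.3% of all genes did. At an unadjusted p under 0.05 there were 3, where 5.12% of all genes passed. These were the GTPase genes Rap1b, at -0.10 ± 0.04, and Rac1, at -0.12 ± 0.05, and Arhgef11, which activates RhoA, at 0.30 ± 0.13. Rac1 was at 0.00 on its most variable probe set, and Rap1b at -0.30 and 0.05 on its others. Rap1b was at 16390.4, 17384 and 18254 without and 15666, 15972 and 17025 with SEMA6A, an overlap of the ranges at the lower end of the arrays without it.

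Metabolic genes outside glycolysis gave single values. Cpox, of haem synthesis, was at 0.70 ± 0.19, which came from the stratum with SEMA3A. There it was at 183, 313 and 299.9 without and 870.4, 805 and 664 with SEMA6A, with no overlap. In the other stratum its difference was -0.12. A second, dimmer probe set was at -0.02, so the difference rests on 1 of 2. Of 16 genes of haem synthesis and iron uptake 5 lay above 0. Cpox was the only one past an unadjusted p of 0.05, where 5.12% of all genes were. Cycs, the cytochrome c gene, had the same shape, at -0.12 and 0.47 and an average of 0.18 ± 0.06, with -0.06 and 0.11 on its other probe sets, while 11 of 26 oxidative phosphorylation genes lay above 0, with a median of -0.03. In cholesterol synthesis Sc5d was at -0.14 ± 0.06 (-0.02 on its second probe set). Psat1, of serine synthesis, was at -0.19 ± 0.08 on its brightest probe set and at 0.17 on the other, so its direction is not settled.

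Interferon response genes, which cells switch on against viruses, had small differences. Of 23 type I interferon response genes 18 lay above 0, with a median of 0.06 that was -0.01 under median scaling, and 0 were past an unadjusted p of 0.05. Without SEMA6A replicate 1, or replicate 2 of both factors, 12 of 23 were above 0. Ifih1, the gene of an RNA sensor, was at 0.18 ± 0.09, from -0.01 and 0.37. Chemokines and their receptors had 11 of 14 genes below 0 and a median of -0.16, with 0 past an unadjusted p of 0.05. By array that list lay at -0.25 to 0.42 without and -0.24 to 0.24 with SEMA6A, which overlap. Ccr2, a receptor for monocyte attractants, was at -0.20 ± 0.14, with other probe sets at -0.43 to 0.06, and Cxcr3, a receptor of activated T cells, at -0.17 ± 0.15.

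**Figure D5:**
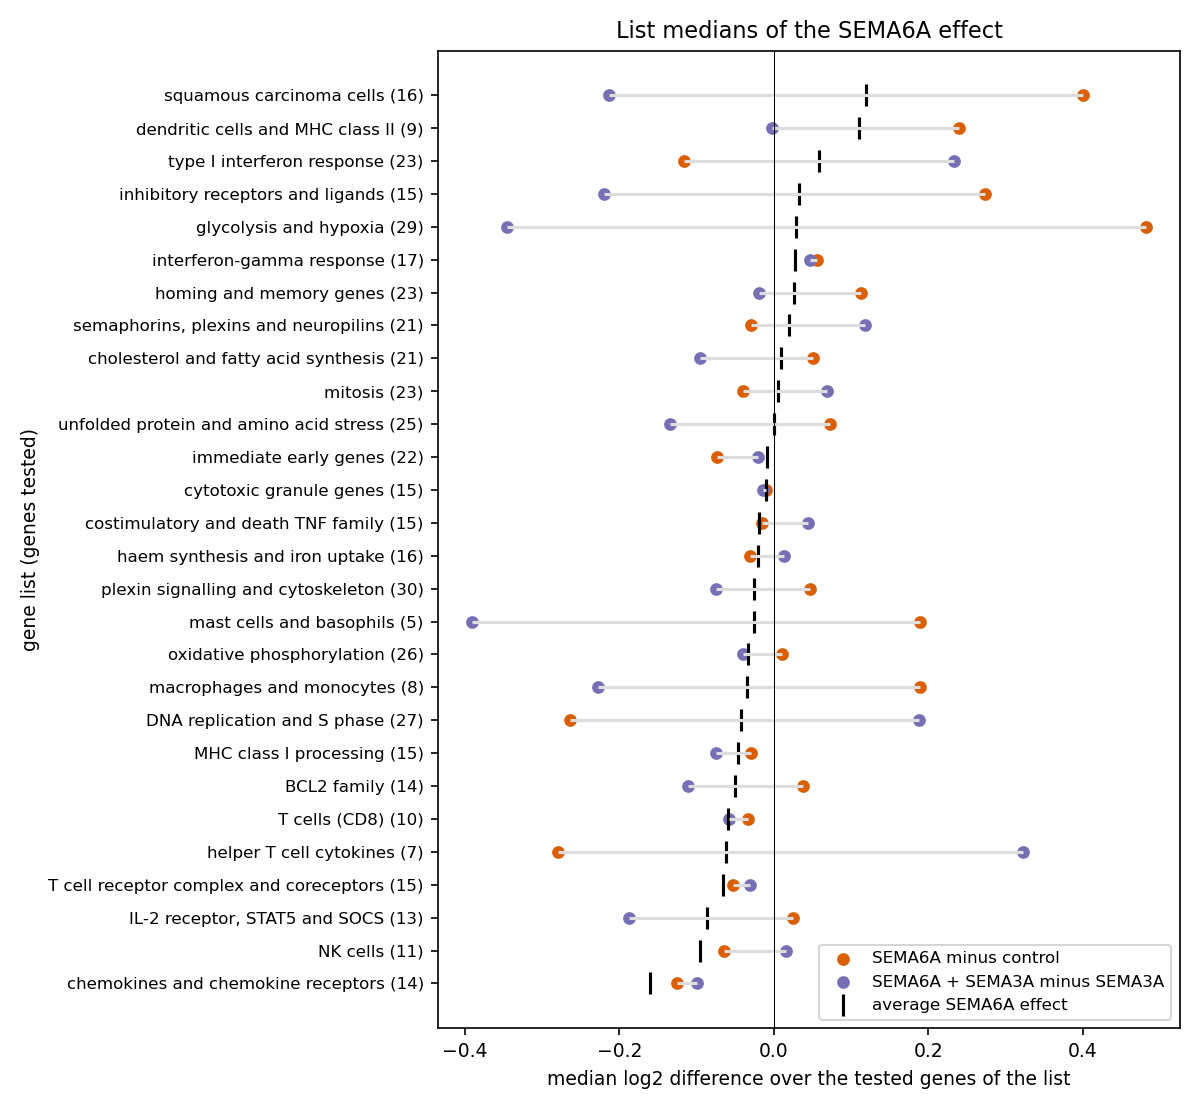
Median log2 difference of the tested genes of the 28 lists with at least 5 tested members: black ticks for the average effect, orange for SEMA6A minus control, purple for both factors minus SEMA3A. The ticks lie between -0.16 and 0.12, and the widest gaps between the coloured points are those of glycolysis and hypoxia, squamous carcinoma, cytokine and mast cell genes.

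Among markers of other cell types, Ncr1, a dim receptor gene of natural killer cells, was at 82.3, 110.0 and 179 without and 42.0, 70.2 and 131 with SEMA6A, a log2 difference of -0.71 ± 0.21 with -0.60 and -0.82 in the strata. The SEMA3A arrays were at 173, 111 and 179 and those with both factors at 79.1, 131 and 44.5, which overlap. The SEMA6A arrays, at 42.0, 66.0 and 74.3, lay below the control arrays, at 82.3, 109 and 107. Of 11 tested natural killer genes 7 were below 0, with a median of -0.10. Only Ncr1 was past an unadjusted p of 0.05, where 5.12% of all genes were. H2-Ab1, a class II antigen presentation gene, was at 277, 315 and 347 without and 319, 367 and 458 with SEMA6A, a difference of 0.24 ± 0.10. Its other 2 probe sets were at -0.15 and -0.54. Class II and dendritic cell genes had 6 of 9 above 0 and a median of 0.11. The 16 squamous carcinoma genes had a median of 0.12 on average, with 11 above 0 and 0 past an unadjusted p of 0.05, and by array lay at -0.32 to 0.29 without and -0.26 to 0.50 with SEMA6A. The neutrophil genes Ltf, of the iron-binding protein lactoferrin, and Il1r2, of an interleukin-1 decoy receptor, were at 0.47 ± 0.36 and 0.02 ± 0.34.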

How the data were processed

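The deposited value table holds 1 intensity per probe set and array on a linear scale, which the authors computed with MAS5 according to the labels (per the submitters' processing notes). No MAS5 version is named in the sources used here. The values of each array had a trimmed mean (2% off each end) of 500, and array medians were 42.5 to 53.5. Scanner files were not used here. Since the medians differed 1.26-fold, more than the limit of 1.25, the signals were quantile normalized and tested as log2(signal + 16), so folds of dim genes are understated.

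Control probe sets (64 of 45101) were left out. Of the other 45037, 34945 had 1 gene in the platform annotation, 932 several and 9160 none listed. RefSeq's gene list matched 34754, with no symbol updated. Probe sets had to exceed the array's own median on 3 or more arrays, which kept 24366, and the brightest stood for its gene, leaving 11325 of 18194 named genes. Each group had 1 mean in limma 3.58.1 (R 4.3.3; eBayes with trend; 8 residual and 5.14 prior degrees of freedom), and the average effect was the mean of the 2 stratum differences, with Benjamini-Hochberg adjustment over all genes. Array measures were tested by exact permutation within strata (400 splits), and figures were drawn in Python 3.11.15.

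Genes named were the 10 of smallest p in each direction, up to 4 of smallest p per list, a panel of 28, and the 5 largest differences in each direction without overlap. Others are named as members of a described list or group. Members and lists were chosen with earlier results of these data known. Same-numbered arrays of different groups did not deviate together, so the numbers were not taken as pairs. The scripts were checked on simulated data. Alternatives were the normalization, pseudocount, filter, probe set rule, model terms, replicate block, array weights and leaving out each array, or 4 arrays together.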

Additional observations from a re-analysis of the deposited data

Results flagged for a closer look

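Of 33 values looked at in the groups of 6 arrays (66 groups), 2 had 1 array far from the other 5, where chance gives about 1 in 20 groups. Pax9 was at 54.9 on control replicate 2 and at 6.998 to 9.07 on the other 5 arrays without SEMA6A. The Gapdh 3'/5' ratio was 1.22 on SEMA6A replicate 2 and 0.767 to 0.793 on the other 5 arrays with SEMA6A. All fits that held Pax9 under the alternatives gave a higher level with SEMA6A. Since it passed the filter mainly through SEMA6A arrays, that direction is no separate support. The results that rest on SEMA6A replicate 2 are given without that array in the report.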

How the results depend on the processing

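No gene was called for the average SEMA6A effect, higher or lower, under any of the alternatives run, adjusted p under 0.1 included, and the lowest adjusted p of any was 0.195, with array weights. Genes at an unadjusted p under 0.05 numbered 331 with the stricter filter, 994 with no filter (18193 genes), 1319 with every probe set counted (20643 tested) and 1220 with array weights, against 580. That estimate of the weights did not converge, and one made gene by gene, chosen after seeing the data, gave 1170. With these 2 kinds of weights the interaction had 2117 and 1847 adjusted calls and the stratum with SEMA3A 624 and 620, and with the first the stratum without SEMA3A had 260, each against 0. Leaving out 1 array gave 0 to 1286 calls for the interaction, 0 to 512 without SEMA3A and 0 to 0 with SEMA3A. With the replicate number as a block there were 0 calls and 476 genes at an unadjusted p under 0.05. Of 18 pairs of arrays with the same number the correlations of deviations were -0.357 to 0.142, with a median of -0.077, against 0.016 for different numbers. Of the named genes at an unadjusted p under 0.05, 5 changed sign, 4 on the probe set of largest interquartile range (Kansl1 at 0.15, Dstyk at -0.24, Rac1 at 1e-04 and H2-Ab1 at -0.54) and Mcm6 (-0.0052) over the 8 arrays left without the 4 that stood apart. Over those 8 there were 573 genes at an unadjusted p under 0.05 for the average SEMA6A effect with 0 adjusted calls, 0 calls for the interaction and both strata, and 3 for the average SEMA3A effect against 0. The cause of these differences was not tested. List medians moved by less than the SD between arrays of a group in 930 fits and by more in 13. Signals near background, as of the semaphorins and their receptors, limit what could be measured.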

Other observations

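Gene groups not described above held no gene past an adjusted p of 0.05 by limma, and values are log2 differences with SEMA6A minus without (± SE). Of 15 genes of class I antigen presentation, which shows peptides to cytotoxic T cells, 10 were below 0 and 0 were past an unadjusted p of 0.05. H2-D1, a class I heavy chain gene, was at 26551, 28365 and 29766 without and 25819, 26837 and 27906 with SEMA6A, a difference of -0.08 ± 0.04, while its other 6 probe sets were at -0.04 to 0.35. Its partner gene B2m was at -0.21 ± 0.13, or -0.03 on an equally bright probe set, and Pdia3, of the complex that loads peptides, at -0.24 ± 0.15. The signals of H2-D1 overlapped between the 6 and 6 arrays.

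Among 14 BCL2 family genes, which set the threshold for cell death, 8 were below 0 and 0 past an unadjusted p of 0.05. The protective gene Bcl2 was at -0.13 ± 0.07 and the death-promoting genes Bid and Bak1 were at -0.13 ± 0.06 and 0.25 ± 0.13. Other probe sets of Bid were at -0.32 and 0.13, and the other of Bak1 was at -0.49. Of 25 genes of the unfolded protein and amino acid responses 13 were above 0, with a median of 0.00 that was -0.07 under median scaling. The stress transcription factor genes Xbp1 and Atf4 were at -0.17 ± 0.08 and -0.12 ± 0.06 on their brightest probe sets. The other 3 of Xbp1 were at 0.09 to 0.17 and the other of Atf4 at 0.23, so neither direction is settled. On the brightest the differences were -0.04 and 0.08 without SEMA3A and -0.30 and -0.32 with it. Of 23 homing and memory genes 14 were above 0, with a median of 0.03, or -0.03 under median scaling. There the integrin gene Itgb1 was at -0.21 ± 0.10, with -0.52 without and 0.10 with SEMA3A. Among the costimulatory and death receptors of the TNF family, apart from Tnfrsf18, Cd27 was at -0.16 ± 0.13.

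Of 17 interferon-gamma response genes 11 were above 0, with a median of 0.03, or -0.03 under median scaling. The guanylate-binding protein genes Gbp2, Gbp3 and Gbp6, which act against microbes inside cells, were at 0.29 ± 0.18, 0.21 ± 0.12 and 0.16 ± 0.11. All 4 tested B cell genes were above 0, with an immunoglobulin heavy chain gene, Ighm, at 0.50 ± 0.29, from 1.01 without and 0.00 with SEMA3A. By array the B cell list lay at -0.35 to 0.45 without and -0.06 to 0.38 with SEMA6A, which overlap.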
